A study of Mus musculus with 44 samples.

Results

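The genes described are 7 extracellular metalloproteases and inhibitors, chosen by name from the deposited table: the matrix metalloproteinase genes Mmp8 and Mmp12, the membrane metalloprotease genes Adam8, Adam12 and Adam17, and the inhibitor genes Timp1 and Timp3. All 7 of the 7 are listed, among 3613 genes. The cells are single C57BL/6J cells labelled as primary osteomacs, the macrophages of bone surfaces. Neonatal calvarial cells were cultured for 16 h with 50000 megakaryocytes (20 cells, all on plate 7, called with-MK cells) or without them (24 cells, all on plate 3, called without-MK cells), and cells positive for CD45 and F4/80 and negative for CD41 were sorted from both cultures. The treatment field gave the groups, although megakaryocytes also appear in the titles of the 24 cells grown without them. No label names an animal or a separate culture, so each group is 1 sample, cells are not replicates, and no p-value was computed between the groups.

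Matrix metalloproteinases (MMPs) are zinc proteases that cut collagens, elastin and other matrix proteins. Most are secreted as inactive precursors. ADAMs are related zinc proteases anchored in the membrane, several of which release the outer parts of other membrane proteins. TIMPs are small secreted proteins that block the catalytic site. TIMP3 binds to the matrix and blocks ADAM17 as well as MMPs. In bone, stromal cells and osteoblasts are known sources of TIMPs, and macrophages of the elastase MMP12, while MMP8 was first known as the collagenase of neutrophils.

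The plates differed in the kind of cell they held, which touches every comparison below. All 18 listed macrophage markers (of 20 sought) were at least 2-fold higher in with-MK cells, where their summed level ran from 4037 to 57625 CPM (reads per 1000000 library reads), against 0 to 176 CPM in without-MK cells. Ptprc, which encodes CD45, was read in all 20 with-MK cells but in 1 of the 24 others, although both cultures were sorted for that protein. Adgre1, which encodes F4/80, was read in 17 and 1 of them. All 7 listed stromal and osteoblast markers (of 20 sought) were at least 2-fold lower in with-MK cells, at sums of 3.88 to 196 CPM against 4276 to 98080 CPM. The label therefore did not hold for the without-MK cells, and plate, treatment and cell kind cannot be told apart. Library reads ran from 69181 to 1212604 in with-MK cells and from 270537 to 714465 in without-MK cells. With-MK cells 11 and 16 had under 100000 reads, and in cell 16 the nuclear transcript Malat1 stood at 245233 CPM, where the median with-MK cell had 6623. The lowest macrophage sum and the highest stromal sum of with-MK cells, given above, were both those of cell 16. Several results below are given with and without cells 11 and 16, and the others keep them.

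Both inhibitors were lower in with-MK cells, while the proteases fell on both sides. A gene was counted as different when its pooled CPM, the summed reads of a group over its summed library reads on the same scale, differed at least 2-fold. Mmp8, Mmp12 and Adam17 were higher in with-MK cells, Adam12, Timp1 and Timp3 were lower, and Adam8 was within 2-fold. Among the 3271 genes tested, which were those read in 10 or more of the 44 cells, 24.4% were at least 2-fold higher and 28.3% at least 2-fold lower, so the direction of a single gene is common in these plates. Changes of 10-fold were less common, at 8.1% of genes higher and 6.7% lower, and 5 of the 7 genes were past that size (Mmp8 and Mmp12 higher, Adam12, Timp1 and Timp3 lower). All 7 genes were among those tested, Adam12 through without-MK cells alone and Mmp12 through 9 with-MK cells and 1 other. These counts describe 2 plates and are not a test.

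**Figure D1:**
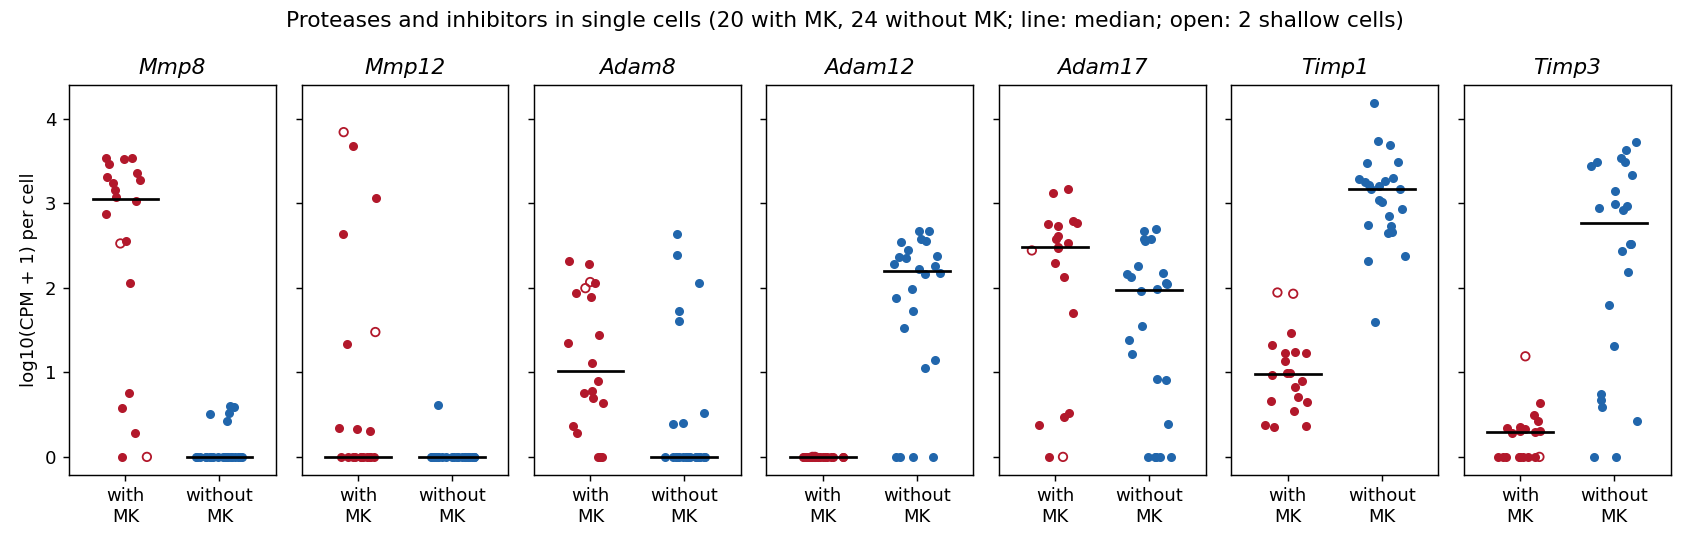
Level of each of the 7 genes in every cell, as log10(CPM + 1), with-MK cells in red and without-MK cells in blue, the line at the group median and open circles for the 2 shallow cells. Mmp8 is high in most with-MK cells and near 0 in all without-MK cells, Timp1 and Timp3 show the reverse, and Adam8 and Adam17 overlap.

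Mmp8 and Mmp12 lie in the MMP gene cluster of chromosome 9 in the GRCm38 (mm10) build. Mmp12 spans 7344381 to 7369499 and Mmp8 spans 7558456 to 7568485, both on the plus strand and both protein-coding. The 189 kb between them hold Mmp1b, Mmp3, Mmp1a and Mmp10, none of which was among the genes analysed. The end of Mmp12 overlaps Mmp1b on the opposite strand by 1261 bases, of which 335 are Mmp12 exon. Whether reads were assigned by strand is not given in the sources used here, so reads in that overlap cannot be given to either gene.

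Start regions are shown for the pair of proteases whose cell patterns are compared below and for the pair of inhibitors that were low in with-MK cells and high in without-MK cells. They were taken from RefSeq (GRCm38.p6), which had an entry for 6 of the 7 genes, all but Adam12. Searches were made for 3 motifs known from MMP and TIMP genes in the 250 bases before each start (210 for Timp3, 234 for the upstream Mmp12 start). These were the AP-1 site TGANTCA and the ETS-type (PEA3) site AGGAAG on both strands, and the TATA box TATAAA on the gene's strand. Of all 32851 RefSeq windows of that length, 6.75% held the AP-1 letters, 29.5% the ETS letters and 7.59% the TATA letters. Bases are 5′ to 3′ on the plus strand, and capitals mark a motif, written as it stands on that strand.
Mmp8, chr9:7558179-7558428 (plus): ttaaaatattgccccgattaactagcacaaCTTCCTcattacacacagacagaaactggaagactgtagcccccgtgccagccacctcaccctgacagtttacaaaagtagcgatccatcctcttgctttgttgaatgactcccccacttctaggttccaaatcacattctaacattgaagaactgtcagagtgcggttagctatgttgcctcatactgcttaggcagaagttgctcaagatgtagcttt
Mmp12, downstream start, chr9:7347124-7347373 (plus): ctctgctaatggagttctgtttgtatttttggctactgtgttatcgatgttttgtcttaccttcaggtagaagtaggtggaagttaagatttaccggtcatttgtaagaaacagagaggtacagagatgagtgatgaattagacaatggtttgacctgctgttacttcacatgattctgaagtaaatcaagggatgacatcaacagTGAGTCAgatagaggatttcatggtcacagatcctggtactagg
Timp1, chrX:20869916-20870165 (plus): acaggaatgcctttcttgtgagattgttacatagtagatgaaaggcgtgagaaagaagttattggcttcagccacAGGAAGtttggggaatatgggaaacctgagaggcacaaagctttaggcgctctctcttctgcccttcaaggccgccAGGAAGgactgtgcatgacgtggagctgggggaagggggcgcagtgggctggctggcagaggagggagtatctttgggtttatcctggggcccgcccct
Timp3, chr10:86300162-86300371 (plus): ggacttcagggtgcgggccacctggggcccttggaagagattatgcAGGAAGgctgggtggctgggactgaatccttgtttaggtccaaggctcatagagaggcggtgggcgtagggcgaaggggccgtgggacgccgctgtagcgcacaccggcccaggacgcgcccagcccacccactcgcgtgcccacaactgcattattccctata
Mmp8 has 1 ETS match and no AP-1 match. Mmp12 has 1 AP-1 match and no ETS match at the start shown, which lies inside the gene span given above. Its upstream start, which is the annotated gene start and is not shown, has 1 ETS match and no AP-1 match. Timp1 has 2 ETS matches and Timp3 has 1 in the 210 bases before its annotated gene start. Adam17 also has 2 ETS matches, Adam8 has no match, and no window of the 6 genes holds the TATA letters. ETS letters thus stand before genes of both cell sets, and a match is not a bound site.

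Mmp8 was read in as many with-MK cells as Adam17, and of the listed MMPs and ADAMs only Adam10 was read in more. Its level over the 20 with-MK cells ran from 0 to 3447 CPM with a median of 1114 CPM, and over the 24 without-MK cells from 0 to 3.05 CPM with a median of 0. It was read in 18 of the 20 with-MK cells (90.0%, 95% interval 68.3 to 98.8%), at 10 CPM or more in 15 of them. In without-MK cells 5 of 24 had a read (20.8%, 7.13 to 42.2%), with at most 2 reads in a cell, and none reached 10 CPM. The sums were 21424 and 6 reads, or 1370 CPM (1352 to 1388) and 0.483 CPM (0.177 to 1.05), a ratio of 2835 (1302 to 7725). With-MK cells 4, 6, 13, 16 and 19 were under 10 CPM, and all but cell 4 lay within the range of the without-MK cells, so the groups overlap in 4 with-MK cells.

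Within with-MK cells Mmp8 fell into a large high set and a small low set, with no cell between 4.67 and 112 CPM. Cells 1, 7 and 18 were highest, at 3437, 3355 and 3447 CPM. Cell 14 was the lowest of the high set at 112 CPM, and cell 4 the highest of the low set at 4.67 CPM. No single cell carried the sum, since the top cell held 14.1% of the reads. Thinned to 310000 reads per cell, 15 of the 18 with-MK cells left and 3 of the 22 others still had an Mmp8 read.

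Because MMP8 is known from neutrophils, the neutrophil markers were read beside it. Of 15 sought, S100a8 and S100a9 were listed, and Elane, Mpo, Ltf, Camp and Ly6g were not among the genes analysed. S100a9 did not exceed 14.5 CPM in any with-MK cell, a maximum from 1 read in shallow cell 11. S100a8 reached 10 CPM in 9 of 20, at up to 1167 CPM. The Spearman correlation of Mmp8 with S100a8 over the 20 cells was 0.45, and with S100a9 it was 0.15. With the myeloid integrin gene Itgam it was 0.63, and with the integrin gene Itgb2 −0.28. Over the macrophage markers Ptprc, Adgre1, Csf1r, Cd68, Lyz2 and Mrc1 it ran from −0.15 (Csf1r) to 0.45 (Lyz2). All 15 cells with Mmp8 at 10 CPM or more had reads of at least 15 of the 18 macrophage markers. The part of other cell types in the Mmp8 level was not tested beyond these values.

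Mmp12 encodes macrophage elastase. It was read in fewer with-MK cells than Mmp8, and nearly all its reads came from 4 of them. Over the 20 with-MK cells it ran from 0 to 6901 CPM with a median of 0, and over the 24 without-MK cells from 0 to 3.06 CPM with a median of 0. With-MK cell 16 had 6901 CPM (494 reads), cell 6 had 4675 CPM (3308 reads), cell 3 had 1151 CPM (1169 reads) and cell 17 had 430 CPM (368 reads). These 4 cells held 99.6% of the group's 5360 reads, and cell 6 alone held 61.7%.

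The remaining Mmp12 reads were few. Cell 12 had 16 reads, cell 11 had 2, and cells 2, 4 and 7 had 1 each, so 9 of 20 with-MK cells had a read, a share with an interval of 23.1 to 68.5%. The only read of the without-MK cells was in cell 23 (4.17%, 0.105 to 21.1%). Pooled levels were 343 CPM (334 to 352) and 0.0805 CPM (0.00204 to 0.449), which is 4255-fold apart (763 to 168099 from counting error). Without cell 6 the with-MK level was 137.4 CPM.

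Of the 6 with-MK cells with Mmp12 at 10 CPM or more, 4 also had Mmp8 at that level, against 15 of all 20 with-MK cells. These counts show no clear separation of the 2 genes. At 10 CPM or more, 11 of 20 with-MK cells had Mmp8 without Mmp12, 2 had Mmp12 without Mmp8 (cells 6 and 16), 4 had both (cells 3, 11, 12 and 17) and 3 had neither (cells 4, 13 and 19). Cell 6 had 4675 CPM of Mmp12 and 2.83 CPM of Mmp8. Cell 3 had 1151 and 1873 CPM of the same genes, so the pair was not mutually exclusive.

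Counting single reads gave a different picture, with 8 cells for both genes, 10 for Mmp8 alone, 1 for Mmp12 alone and 1 for neither. The Spearman correlation over the 20 cells, which share 1 plate and unequal depth, was −0.31. Without the shallow cells 11 and 16 it was −0.16, with Mmp8 alone in 11, Mmp12 alone in 1, both in 3 and neither in 3 of 18 cells at 10 CPM. In counts this sparse a correlation of that size is not a finding.

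**Figure D2:**
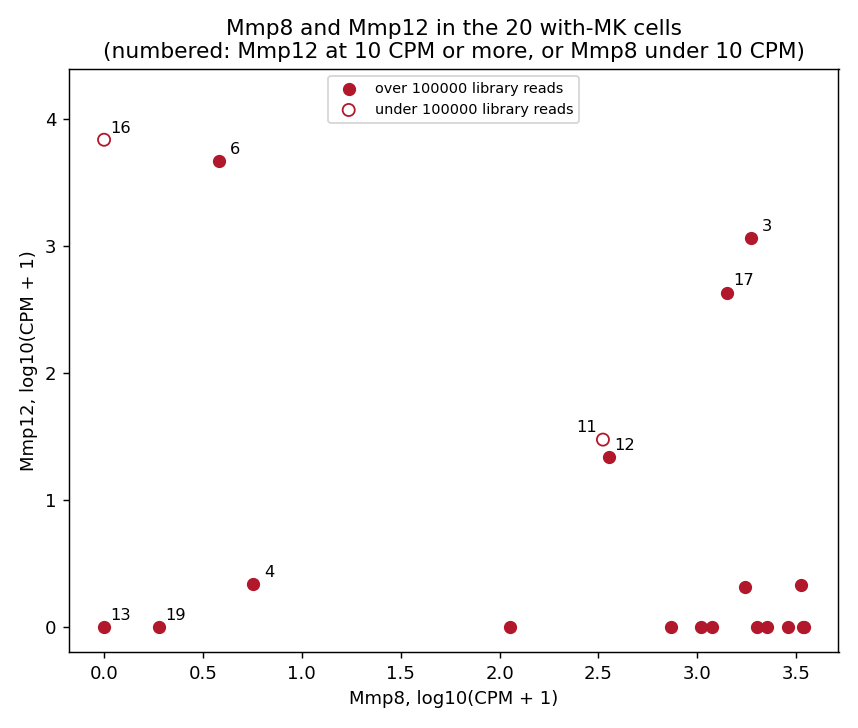
Mmp8 (horizontal axis) against Mmp12 (vertical axis) in each of the 20 with-MK cells, as log10(CPM + 1), with open circles for the 2 cells under 100000 library reads. Cells 6 and 16 hold Mmp12 with Mmp8 under 10 CPM, cells 3 and 17 hold both at high levels, and most cells lie along the bottom right with Mmp8 alone.

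The 4 cells with most Mmp12 had low sums of macrophage markers. Cells 17, 3, 6 and 16 ranked 15, 17, 18 and 20 of the 20 with-MK cells in that sum, at 19790, 15489, 10601 and 4037 CPM, against a group median of 25168 CPM. Cells 1 and 19, with no Mmp12 read, ranked 16 and 19. The Spearman correlation of Mmp12 with the sum was −0.55, and −0.47 without the shallow cells. With single markers (Itgam, Cd68, Lyz2, Adgre1, Mrc1, Ptprc and Csf1r) it ran from −0.41 (Itgam) to 0.01 (Csf1r). With Itgb2, which was highest in cell 6 at 1704 CPM, it was 0.10. Ptprc was above its median of 250 CPM in cells 3 and 17 (706 and 818 CPM). It was below that in cells 6 and 16 (2.83 and 83.8 CPM). Cell 16 was shallow and rich in Malat1, as given above, and cell 6 had reads in 1528 listed genes against a group median of 2054. Csf1r, the receptor of macrophage colony-stimulating factor, was at 91.7 CPM or more in every with-MK cell. It was above its median of 679 CPM in cells 6 and 16 (972 and 754 CPM). In cells 3 and 17 it was below that (203 and 621 CPM). The low marker sums of the cells with most Mmp12 were noticed in the data, and the part of depth in them was not tested beyond the values given.

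Adam17, or TACE, is the sheddase that releases tumour necrosis factor and ligands of the epidermal growth factor receptor. It spans 21323509 to 21373632 on chromosome 12 (minus strand). In with-MK cells it ran from 0 to 1475 CPM with a median of 300 CPM, and in without-MK cells from 0 to 499.5 CPM with a median of 93.6 CPM. The groups overlap widely. A read was found in 18 of 20 (90.0%, 68.3 to 98.8%) and 19 of 24 cells (79.2%, 57.8 to 92.9%). Pooled levels were 402 CPM (392 to 412) and 131.2 CPM (124.9 to 137.7), a 3.06-fold ratio (2.90 to 3.24), past the 2-fold that 24.4% of all genes tested reached in the same direction. With-MK cells 13 and 7 were highest, and cell 13 held 19.1% of the reads. Its last 311 bases overlap Iah1 on the opposite strand, which was not among the genes analysed.

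Adam8 encodes an ADAM of myeloid cells and osteoclasts. It spans 139978932 to 139992562 on chromosome 7 (minus strand), 5.75 Mb from Adam12. Its level ran from 0 to 207 CPM in with-MK cells (median 9.33 CPM) and from 0 to 426 CPM in without-MK cells, with a median of 0. The highest cell of all was thus a without-MK cell, cell 6. Reads were found in 17 with-MK cells (85.0%, 62.1 to 96.8%) against 8 without-MK cells (33.3%, 15.6 to 55.3%), and 10 and 5 of them reached 10 CPM. Pooled levels were 45.8 CPM (42.6 to 49.3) and 33.6 CPM (30.4 to 36.97), a ratio of 1.36 (1.21 to 1.54).

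Adam8 thus differed more in the number of cells with a read than in the pooled level. Without-MK cells 5, 6, 16 and 2 held 94.96% of that group's 417 reads, and with-MK cells 2, 13 and 5 held 68.2% of 717 reads. After thinning, the pooled levels were 41.6 and 39.4 CPM, with a read in 14 of 18 and 7 of 22 cells. On the mean of log2(CPM + 1) the difference was 2.17, at 3.79 ± 2.69 (SD over 20 cells) against 1.62 ± 2.88 (SD over 24 cells).

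Adam12 encodes an ADAM of mesenchymal cells, known for roles in muscle and fat precursors and for cutting growth factor precursors and binding proteins. It spans 133883199 to 134232146 on chromosome 7 (minus strand). No with-MK cell had a read, which allows a share of up to 15.0% of such cells by the limit of 3 counts and of 16.8% by the exact interval, whereas 20 of 24 without-MK cells had one (83.3%, 62.6 to 95.3%), each at 10 CPM or more. The without-MK cells ran from 0 to 472 CPM with a median of 156 CPM, and cells 6, 9, 17 and 18 had none. The sum was 2100 reads, or 169 CPM (162 to 177). Against a floor of 3 reads over the with-MK group, Adam12 was at least 882-fold lower there. Of all genes tested, 0.581% had no read in any with-MK cell.

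Timp1 encodes a secreted inhibitor of most MMPs. It spans 20870166 to 20874735 on chromosome X (plus strand), wholly inside Syn1 on the opposite strand, which was not among the genes analysed. Every cell of both groups had a read, so detection does not separate them and the level does. With-MK cells had 1 to 22 reads each, or 1.23 to 86.7 CPM with a median of 8.55 CPM. Without-MK cells had 16 to 8098 reads each, or 38.1 to 15399 CPM with a median of 1461 CPM. Pooled levels were 9.46 CPM (8.00 to 11.1) and 2181 CPM (2155 to 2208), 231-fold lower in with-MK cells (196 to 273).

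The Timp1 ranges overlapped through the 2 shallow with-MK cells alone. Cell 11 had 86.7 CPM from 6 reads. Without the shallow cells the with-MK maximum was 27.8 CPM, under the without-MK minimum of 38.1 CPM, a separation that 0.336% of all genes tested showed in that direction and 0.611% in the other. With all cells kept, none of the 7 genes had ranges that did not overlap, against 0.214% of genes lower and 0.489% higher. Of the without-MK Timp1 reads, 29.9% were in cell 14. Cells 9 and 24 had the lowest levels, at 38.1 and 204 CPM.

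The few Timp1 reads of with-MK cells moved with the few stromal reads there. The Spearman correlation of Timp1 with the summed stromal markers over the 20 cells was 0.85, and both were highest in the shallow cells 16 and 11, where 6 Timp1 reads in each gave 83.8 and 86.7 CPM. Without these cells it was 0.80 over 18 cells. In without-MK cells the same correlation was −0.02. Both are counts of few reads divided by the same library reads, and the part of this in the correlation was not tested. Where the with-MK reads came from was not tested either.

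Timp3, whose protein is bound to the matrix, spans 86300372 to 86349506 on chromosome 10 (plus strand), wholly inside Syn3 on the opposite strand, also not among the genes analysed. With-MK cells had at most 2 reads, or 0 to 14.5 CPM with a median of 0.945 CPM (at most 3.31 CPM without the shallow cells, since the maximum is 1 read in cell 11), and 11 of 20 had a read (55.0%, 31.5 to 76.9%). Without-MK cells ran from 0 to 5210 CPM with a median of 583 CPM, and 22 of 24 had a read (91.7%, 73.0 to 99.0%). Pooled levels were 0.895 CPM (0.489 to 1.502) and 1348 CPM (1328 to 1369), 1506-fold lower in with-MK cells (897 to 2755).

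Timp3 was not uniform among the without-MK cells. It stood at 10 CPM or more in 18 of 24, and cells 9, 10, 17, 18, 20 and 24 had at most 2 reads. Cells 3, 8, 15 and 16 held 57.2% of the reads. Low Timp3 did not always go with low Adam12 or Timp1. Cell 17 had no Timp3 and no Adam12 read but 2965 CPM of Timp1, and cell 10 had 4.55 CPM of Timp3 with 375 CPM of Adam12. At 10 CPM or more, 17 of 24 without-MK cells had Adam12, Timp1 and Timp3 together, where the genes singly were in 20, 24 and 18. No with-MK cell had all 3, which follows from the lack of any Adam12 read there. The Spearman correlations over the 24 cells were 0.19 for Timp1 with Timp3, 0.18 for Adam12 with Timp3 and −0.02 for Adam12 with Timp1, which are weak.

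**Figure D3:**
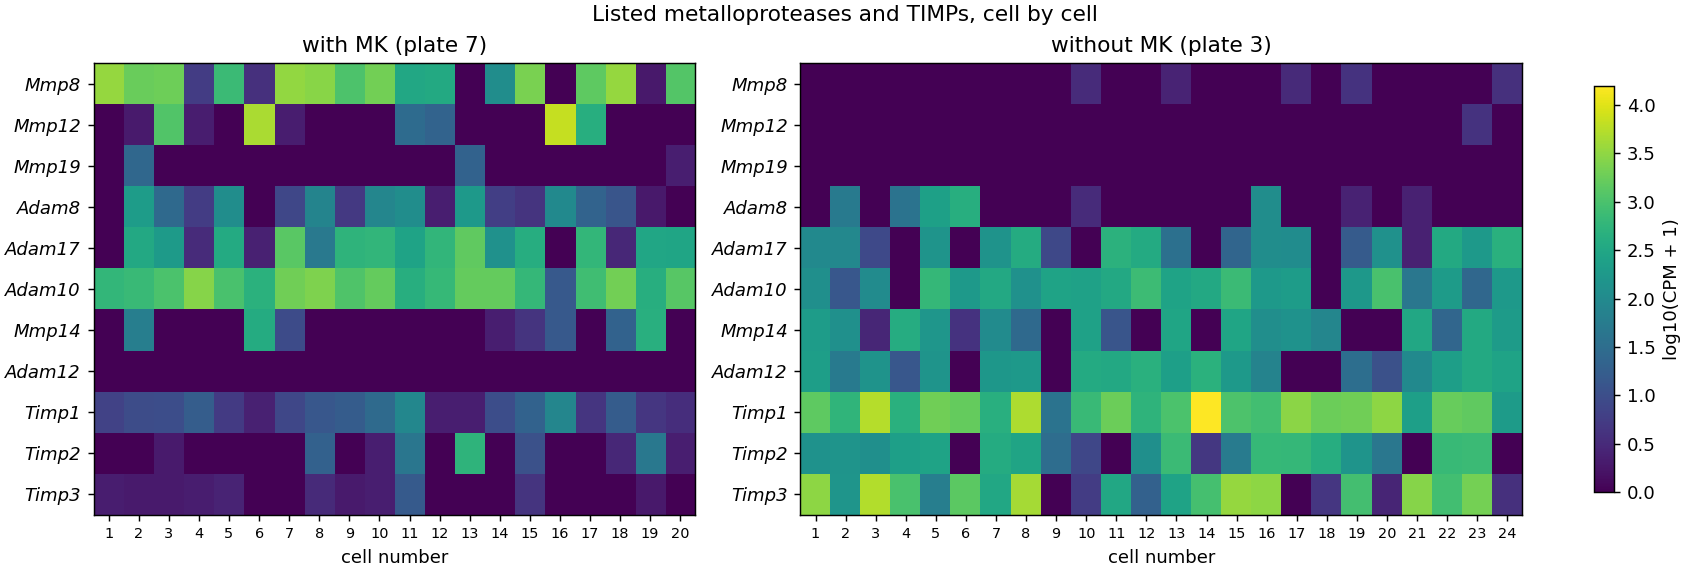
Level of the 7 genes and of their 4 listed relatives (Mmp14, Mmp19, Adam10 and Timp2) in each cell, as log10(CPM + 1), with-MK cells on the left and without-MK cells on the right. Mmp8 fills most of its row on the left and Timp1 the whole of its row on the right, and Adam12 is empty on the left.

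The other members of the families that are in the table were Mmp14 and Mmp19 of 21 MMP genes sought, Adam10 of 12 ADAM genes, and Timp2 of 12 inhibitor genes. None of 24 ADAMTS genes and 5 astacin genes was among the genes analysed, so the families are seen in part. Adam10, the relative of Adam17 that cleaves Notch receptors, was the most widely read gene of the listed MMPs and ADAMs, with reads in 20 of 20 and 22 of 24 cells. Its pooled levels were 1230 and 286 CPM, a 4.31-fold ratio (4.15 to 4.46).

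Mmp14, the membrane-bound MMP that activates pro-MMP2 with the help of TIMP2, had reads in 8 of 20 and 19 of 24 cells, at 53.4 and 131.05 CPM. With-MK cell 19 held 58.7% of its group's reads, and without the top cell of each group the levels were 23.7 and 119 CPM. Timp2 was at 33.4 and 228 CPM, with reads in 9 of 20 and 20 of 24 cells. With-MK cell 13 held 84.3% of the with-MK Timp2 reads, and without the top cells the levels were 5.53 and 202 CPM. Mmp14 and Timp2 were both at 10 CPM or more in 13 of 24 without-MK cells and in 1 of 20 with-MK cells. Singly they reached that level in 17 and 18 of the 24 and in 5 and 4 of the 20. Their Spearman correlation over the 24 without-MK cells was 0.24, which is weak. The 40 reads of Mmp19 were in 3 with-MK cells. With these relatives, all 3 listed TIMPs were at least 2-fold lower in with-MK cells. Of 7 tested proteases 4 were higher (Mmp8, Mmp12, Adam10 and Adam17), 2 lower (Mmp14 and Adam12) and 1 within 2-fold (Adam8). The shares over all genes tested were 24.4% higher and 28.3% lower.

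**Figure D4:**
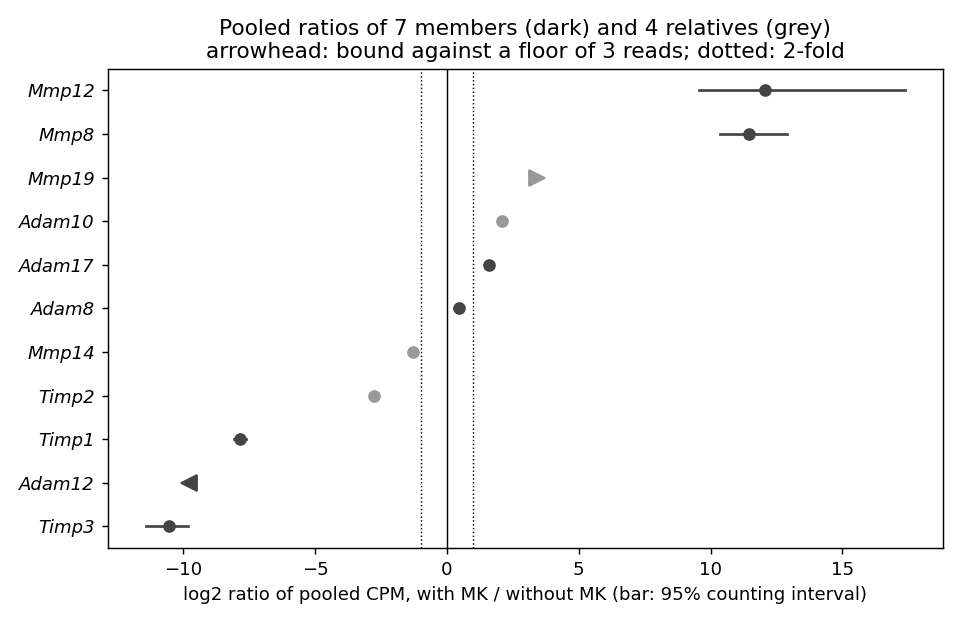
Log2 ratio of pooled CPM, with-MK over without-MK cells, for the 7 genes (dark) and 4 relatives (grey), with 95% counting intervals as bars, arrowheads for bounds against a floor of 3 reads and dotted lines at 2-fold. Mmp12 and Mmp8 lie at 12.06 and 11.47, Timp1, Adam12 and Timp3 at −7.85, −9.78 and −10.56, and Adam8 within the dotted lines at 0.45.

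Levels were compared between genes only after division by the union of exon bases in the GENCODE M21 annotation of GRCm38. In with-MK cells the order of pooled CPM per kb was Mmp8 at 565, Adam10 at 268, Adam17 at 89.2, Mmp12 at 86.0, Adam8 at 14.7, Mmp14 at 12.8, Timp1 at 10.7, Timp2 at 9.00, Mmp19 at 0.741 and Timp3 at 0.190, with Adam12 at 0. Adam10 was above Adam17 in 20 of 20 cells, and Mmp8 above Adam10 in 14 of 20. Adam17 was above Mmp12 in 16 of 20 cells although their pooled levels were close, since Mmp12 rests on few cells. Mmp12 was below Adam8, the next gene in the order, in 13 of 20 cells, and Mmp14 was below Timp1 in 17 of 20.

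In without-MK cells the order began with Timp1 at 2457 CPM per kb and Timp3 at 285, then Adam10 at 62.2, Timp2 at 61.4, Mmp14 at 31.3, Adam17 at 29.1, Adam12 at 22.0 and Adam8 at 10.8, with Mmp8 at 0.199, Mmp12 at 0.0202 and Mmp19 at 0. Timp1 was above Timp3 in 23 of 24 cells. Timp3, Adam10, Timp2, Mmp14, Adam17 and Adam12 followed each other with the higher gene above the next in only 11 to 16 of 24 cells, so their order is within the spread between cells.

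**Figure D5:**
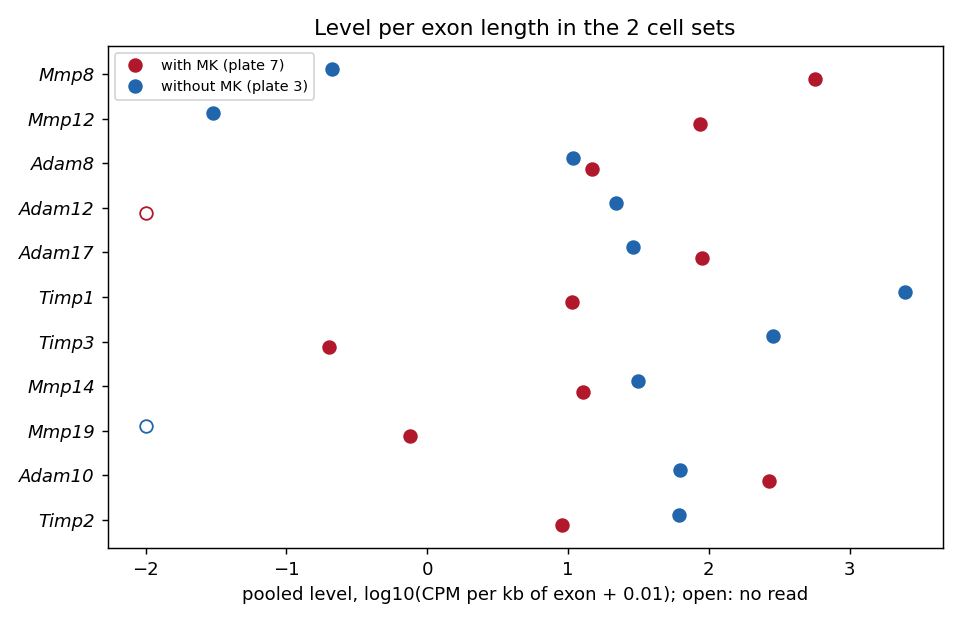
Pooled level per kb of exon, as log10(CPM per kb + 0.01), of the 7 genes and 4 relatives, with-MK cells in red and without-MK cells in blue, open where no read was found. Mmp8 leads with-MK cells at 565 CPM per kb and Timp1 leads without-MK cells at 2457.

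The balance of proteases and inhibitors within a cell, on the same per-kb scale, was opposite in the cell sets. The summed 8 listed proteases (4 MMPs and 4 ADAMs) ran from 267 to 2103 CPM per kb in with-MK cells (median 1021) and the summed 3 TIMPs from 1.45 to 147, with a median of 13.6. The proteases were above the TIMPs in 20 of 20 with-MK cells. With the 5 member proteases against Timp1 and Timp3 this held in 19 of 20, all but cell 4. With the 4 ADAMs against the 3 TIMPs it also held in 19 of 20, all but cell 16. In without-MK cells the proteases ran from 20.3 to 308 CPM per kb, with a median of 147, and the TIMPs from 51.3 to 17536, with a median of 2100. The TIMPs were above the proteases in 23 of 24 of these cells, the exception being cell 9, which had the least Timp1 and no Timp3. With MMPs alone, the TIMPs were lower in 18 of 20 with-MK cells and higher in 24 of 24 without-MK cells, and with-MK cells 4 and 13 were the exceptions. Both had almost no Mmp8 or Mmp12, and cell 13 had 541 CPM of Timp2. Cell 19 had almost no Mmp8 or Mmp12 either, but it had 444 CPM of Mmp14 and was not an exception. These sums hold listed genes only and measure RNA, not protein or activity. This balance and the order of genes above rest on recovered reads, with the unexplained whole number that divides each gene's deposited signal taken out. On the deposited signal the mean over with-MK cells was 2406 for Mmp8 and 4190 for Timp1, so Mmp8 was not above Timp1 there.

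Genes with the cell pattern most like each member were named by the highest Spearman correlation of CPM within the plate where a larger share of cells had a read (with equal shares, for Timp1, the plate with more cells), among genes with a read in at least 10 cells there. For Mmp8 over 20 with-MK cells they included Dnajb6 (0.75) and Prelid1 (0.72). For Adam17 over the same cells they were Ssr4 (0.79), Atp6v1e1 (0.75) and Pfdn2 (0.71), and for Adam8 Lypla2 (0.75), Lnp (0.65) and Pld3 (0.63). Over 24 without-MK cells they were Ece1 (0.81), Zranb1 (0.66) and Rpl37rt (0.65) for Timp1, Dolk (0.64), Ttc19 (0.62) and Bdp1 (0.60) for Timp3, and Cox20 (0.70), Plin3 (0.64) and Slc39a7 (0.64) for Adam12. Each is the top of 2162 or 2710 genes compared over few cells, and cells share plate and differ in depth. Mmp12 had a read in under 10 cells and got none.

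Other parts of the proteolytic system were taken from lists of names. Among activation and shedding partners, 6 of 17 were listed, of which 1 was at least 2-fold higher and 2 lower in with-MK cells. Over all genes tested, 24.4% were higher and 28.3% lower. The median log2 ratio was −0.25 for the list against −0.14 over all genes tested. Lrp1, the uptake receptor for protease-inhibitor complexes, was at 124.75 and 58.2 CPM. Basigin, the MMP inducer encoded by Bsg, was at 111 and 245 CPM. The tetraspanin genes Tspan5 and Tspan14, whose products escort ADAM10, were at 5.50 and 27.5 CPM and at 70.7 and 106 CPM. With listed reads as the total, Lrp1 was within 2-fold (log2 ratio 0.84), and on the deposited signal Bsg was (−0.89). With-MK cell 10 held most Tspan5 reads, and without the top cells its levels were 0.741 and 20.2 CPM. Furin, the convertase that removes propeptides of ADAMs and membrane MMPs, was at 42.2 and 40.2 CPM.

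Of the plasminogen system, 4 of 11 genes were listed and 3 tested, 1 of them at least 2-fold higher, 1 lower and 1 within 2-fold. The shares over all genes tested were 24.4% higher and 28.3% lower. The median log2 ratio of the list was −0.91. The urokinase receptor gene Plaur was at 378 and 1069 CPM, the plasminogen receptor gene Plgrkt at 83.3 and 17.2 CPM, and the serpin gene Serpinb6a at 198 and 373 CPM. Serpinb6a passed 2-fold, which made 2 genes lower, in 5 of 7 alternatives, with log2 ratios from −3.71 to −1.14 there. While 24.4% of all genes tested were past 2-fold on the with-MK side, all 11 listed genes of lysosomal cathepsins, legumain and their inhibitors were. In that list, of 20 genes sought, the median log2 ratio was 2.87. The 11 genes include the cystatin genes Cst3 (1044 and 180 CPM) and Cstb (817 and 341 CPM), which encode inhibitors. Protease and inhibitor of that class thus stood on the same side, unlike the MMPs Mmp8 and Mmp12 and the TIMPs. The leading proteases were Ctss (2666 and 0.886 CPM), Lgmn (1822 and 23.1 CPM), Ctsc (2657 and 48.2 CPM) and Ctsb (8923 and 555 CPM). Ctss is also among the macrophage markers above. Without the top cells Lgmn was at 1538 and 7.25 CPM.

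Matrix proteins that MMPs cut were on the side of the TIMPs. Of 32 sought, 9 were listed, and 8 were at least 2-fold lower on the with-MK side. Over all genes tested, 28.3% were lower. The median log2 ratio of the list was −10.33. Col1a2, Col3a1, Bgn and Sparc are also among the 7 stromal markers above, so this list in part repeats the difference in cell kind. The microfibril gene Mfap5 was at 0.384 and 2122 CPM, Sparc at 3.58 and 6088 CPM, Col1a2 (a collagen chain) at 2.43 and 3967 CPM and the fibulin gene Fbln2 at 0.448 and 714 CPM. Spp1, which encodes osteopontin, a substrate of several MMPs, was within 2-fold at 1456 and 2902 CPM, a log2 ratio of −0.995, and on mean log2(CPM + 1) it was higher in with-MK cells by 3.38. Without-MK cell 13 held most Col1a2 reads, and without the top cells its levels were 2.29 and 1834 CPM.

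Membrane proteins known to be shed by ADAMs were found on both sides, in shares near those of all genes tested. Of 34 sought, 15 were listed, 4 at least 2-fold higher, 4 lower and 7 within 2-fold, with a median log2 ratio of 0.28, where 24.4% of all genes tested were higher and 28.3% lower. The macrophage receptors Trem2 (231 and 0.0805 CPM) and Csf1r (680 and 2.01 CPM) were higher in with-MK cells, where Adam17 and Adam10 were higher. Both receptors are also among the macrophage markers above. Without the without-MK cell with most Csf1r reads, cell 19, and with-MK cell 5, Csf1r was at 607 and 0.510 CPM. Trem2 without the top cells was at 190 CPM in with-MK cells with no read left in the others. Hbegf, an ADAM17 and ADAM12 substrate of the epidermal growth factor family, was at 21.0 and 751 CPM, and Pdpn, which encodes podoplanin, at 168 and 3740 CPM. With-MK cell 4 held most with-MK reads of Hbegf and cell 7 most of Pdpn, and without the top cells Hbegf was at 2.16 and 713 CPM and Pdpn at 32.5 and 3469 CPM. Alcam, which encodes CD166 and is itself an ADAM17 substrate, was at 173 and 177 CPM.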

How the data were processed

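Single-cell libraries were made on a Fluidigm C1 with SMART-Seq and Nextera XT kits, per the series' design text. Build mm10 and Seurat are named in the submitters' processing notes, and what aligned and counted the reads, the annotation and the choice of genes is "not given in the sources used here". The deposited table holds a signal of the form reads × 1e+09 / (library reads × a whole number per gene), as worked out from its values. The most frequent value of a cell gave its library reads. The smallest divisor up to 100000 made all 99807 values above 0 whole, within 0.0001. The divisor is not stated, so CPM and not the deposited signal was compared. The divisor search was tried on simulated signal built from the divisors and library reads found here. The step that gives library reads was not tested. No count model was fitted, since each group is 1 sample.

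Intervals are exact 95% (Clopper-Pearson for shares, Poisson for sums, binomial for ratios). They cover counting error only and take reads without molecular identifiers as independent. Levels per kb used GENCODE M21 exons. Members, lists and rules were chosen with earlier results of these data known. Named genes were the 7 members, their listed relatives, and up to 4 genes per list with the largest pooled log2 ratio, and the 3 genes most like each member, of which 1 is not reported here. Furin, Cst3, Cstb, Spp1 and Alcam were added after values were seen. So were the markers S100a8, S100a9, Itgam, Itgb2, Cd68, Lyz2, Mrc1 and Malat1. Col3a1 and Bgn are named only because lists share them. Of markers of other types, 1 osteoclast gene (Tnfrsf11a, up to 1013 CPM in with-MK cells), 1 megakaryocyte gene (Pf4, up to 8749 CPM) and no endothelial gene were listed. Python 3.11.15, numpy 2.4.6, pandas 2.3.3, scipy 1.17.1 and matplotlib 3.10.9 were used. No cell was removed, and no doublet caller was run.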

Additional observations from a re-analysis of the deposited data

How the results depend on the processing

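The counts of 3 genes higher and 3 lower held without the 2 shallow cells, at a common depth of 310000 reads (18 and 22 cells deep enough), with listed reads as the total, with median-of-ratios scaling, on the deposited signal and without the top cell of each group. On mean log2(CPM + 1) Adam8 joined the higher genes, which made 4, and at 10-fold Adam17 left them, which made 2. Cells with a read of both Mmp8 and Mmp12 were 8, and 5 of 18 after thinning or 4 of 20 at 10 CPM or more. Their correlation stayed below 0 under the 6 alternatives, from −0.35 to −0.16. The log2 ratio of Mmp12 went from 12.06 to 9.11 without the top cells, where the floor of 3 reads replaced the single without-MK read, so that value is a bound. After thinning no without-MK read was left either, and the bound was 9.64. That of Adam8 was 0.08 after thinning. The median of all genes tested was −0.14, −0.40 with listed reads as the total, −0.47 without the top cells, −0.18 on the deposited signal and −1.10 on mean log2(CPM + 1). No paired analysis was possible because the groups are 1 sample each and no result comes from a test. The alternatives for Mmp12 with summed macrophage markers and Timp1 with summed stromal markers were chosen after seeing the data.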
